A study of Drosophila melanogaster with 12 samples.

Results

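The proteasome subunit genes are the genes of the count table whose FlyBase symbol begins with Prosalpha or Prosbeta, or is Rpn or Rpt followed by a digit. This rule found 48 genes among 17610, all at the same coordinates as in the Ensembl BDGP6 annotation. Of the 48, 32 encode the ubiquitous subunits: 7 of the alpha ring, 7 of the beta ring, 10 of the base and 8 of the lid. The other 16 are paralogs with an R or T suffix, several of which are known from the testis. RNA was sequenced from whole bodies of female Drosophila melanogaster of the genotype labelled Oregon, in 4 groups of 3 libraries: flies given cisplatin, flies given TiO2 nanoparticles, flies given both at once (the combination), and untreated controls. All groups ate the same medium with yeast and a green food dye for 3 days, the agents being dissolved in the water that went into it. Cisplatin is a platinum drug that crosslinks DNA, and TiO2 nanoparticles are a titanium oxide powder used as a pigment and in sunscreens. The labels disagree on the dose of each agent, which is 50 µg/ml where the feeding is described and 50 mg/ml in the titles. The age of the flies and the number of flies in a library are not given in the sources used here, so the tests below measure the spread between libraries.

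The proteasome degrades proteins that carry ubiquitin chains. Its core is a barrel of stacked rings, in which alpha subunits form the gate and beta subunits hold the proteolytic sites. A regulatory cap sits on the barrel: its base has a ring of Rpt ATPases that unfold the substrate, scaffold subunits and ubiquitin receptors, and its lid holds the enzyme that removes ubiquitin. The subunits are built into complexes in fixed proportions, and their genes are active in nearly every cell. In Drosophila, the transcription factor encoded by cnc raises subunit transcripts when proteasome activity falls, and many subunits have a second gene used in the male germline.

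The library totals ran between 26763042 and 46694769 counts. Ovarian germline markers (12 genes) and follicle cell markers (9 genes) had counts in every library, but at unequal levels. The germline markers summed to 1257 CPM in combination library 2, and to 1409 and 1437 CPM in control libraries 1 and 2. Elsewhere they summed to 2046 to 2876 CPM. The follicle markers whose symbol begins with Cp were lowest in control library 1 and combination library 2, while those beginning with Vm were not. Cp36 had 1.25 and 5.10 CPM in these libraries, against 95.6 to 3418 CPM elsewhere. Libraries stood apart in other ways. Combination library 2 had counts for all 22 testis markers, which summed to 1006 CPM (counts per 1000000 counts of the TMM-scaled library size), against 0.766 to 2.68 CPM in the other 11 libraries, where 7 to 19 of the 22 were at 0. Its male accessory gland markers summed to 764 CPM, against 0.138 to 0.643 CPM elsewhere, so this library went against its label of female flies. Control library 1 had the largest share of counts from the mitochondrial genome, 16.7%, against 6.20% to 12.4% elsewhere. The summed level of 6 flight muscle markers ran from 1950 to 36418 CPM.

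The 32 ubiquitous genes together took between 0.455% and 0.638% of a library's counts. Their summed level averaged 5709 ± 284 CPM in cisplatin flies, 5541 ± 505 CPM in TiO2 flies, 5504 ± 234 CPM in combination flies and 5540 ± 481 CPM in control flies (SD, n = 3 each). The lowest sum was 4971 CPM in TiO2 library 2 and the highest 6045 CPM in control library 2, so the range within groups was wider than the distance between their means. In these bulk samples, fewer cells of a type and less RNA per cell cannot be told apart.

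Levels of different genes were compared as RPKM, which is CPM per kb of the exon length in the count table. Apart from Prosalpha1, the ubiquitous genes lay within a narrow band. Prosbeta5, the subunit with the chymotrypsin-like site, had the highest level at 186 ± 17.3 RPKM. Prosalpha6, part of the gate ring, was next at 183 ± 18.0 RPKM, which is within the spread of the first. Rpn3, a lid scaffold subunit, had the lowest level at 79.2 ± 7.79 RPKM (SD over 12 libraries for each), and was lowest of the 31 genes in every library. By subcomplex, the levels per length ran from 140 to 183 RPKM for 6 alpha ring genes, from 117 to 186 RPKM for the 7 beta ring genes, from 96.8 to 128 RPKM for the 10 base genes and from 79.2 to 155 RPKM for the 8 lid genes. The rank order of the 31 genes was similar from library to library: Spearman's rho between a library and the mean of the others was between 0.855 (control library 1) and 0.985 (cisplatin library 1), over genes that share a library and its depth. The spread of log2 RPKM over the 31 genes was 0.448 in control library 1 and between 0.275 and 0.341 in the other 11.

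**Figure D1:**
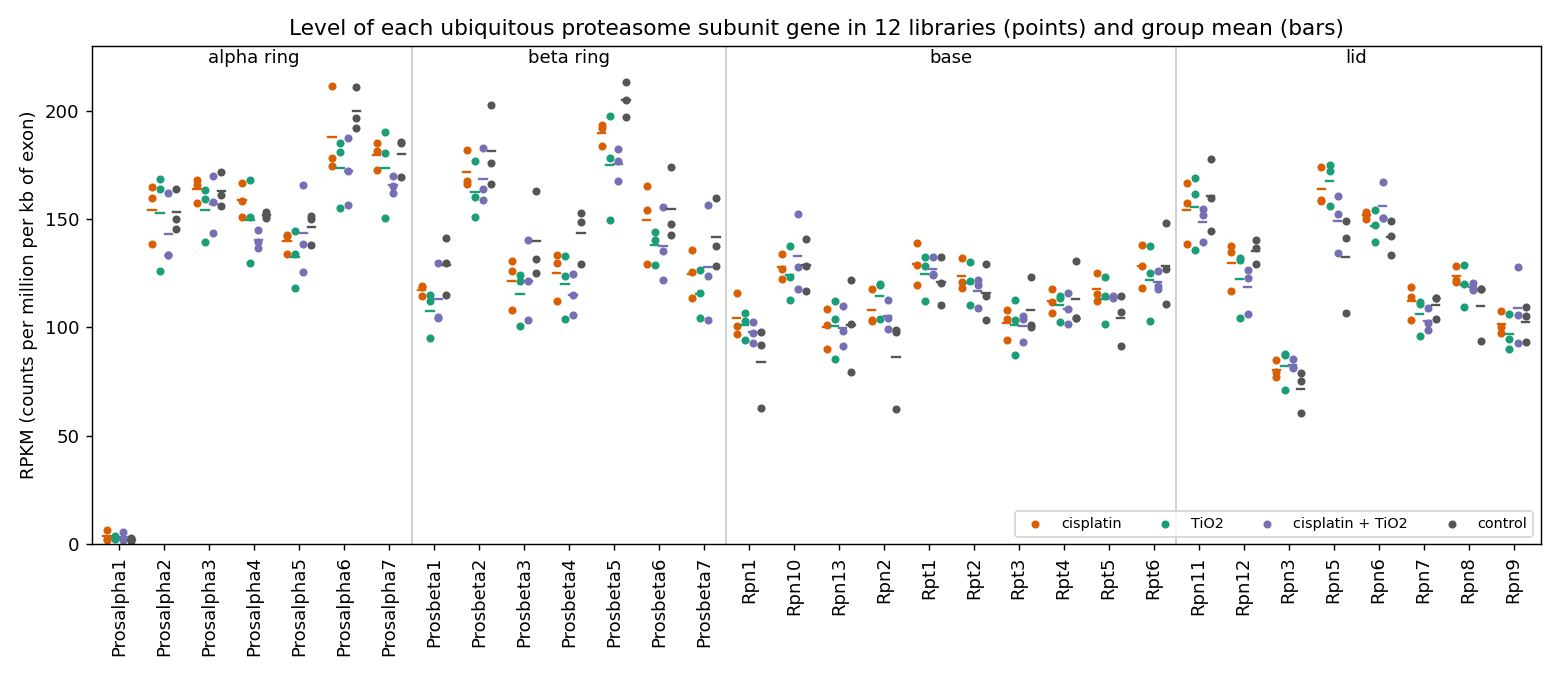
Level of each of the 32 ubiquitous subunit genes in RPKM (CPM per kb of exon) in the 12 libraries, as points, with a bar at the mean of each group of 3. Prosalpha1 sits near 0, Rpn3 is the lowest of the rest, and Prosbeta5 and Prosalpha6 are the highest.

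Prosalpha1 was the exception. This alpha ring gene (2R:7827303-7828678) averaged 2.81 RPKM. In CPM it had 5.95, 2.13 and 1.88 in cisplatin libraries, 1.92, 3.53 and 2.38 in TiO2 libraries, 1.92, 5.43 and 1.82 in combination libraries and 2.05, 2.36 and 1.25 in control libraries. Its neighbour Prosalpha1R (2R:7830413-7831771) averaged 6.10 RPKM. In CPM it had 11.8, 5.07 and 4.74 in cisplatin libraries, 3.89, 7.13 and 5.73 in TiO2 libraries, 2.97, 12.0 and 1.87 in combination libraries and 3.59, 6.03 and 4.85 in control libraries. These genes are near-identical copies, so how the authors' counting treated reads that match both can set both values, and they are reported as uncertain. Both were high in cisplatin library 1 and combination library 2, and the ranges of all 4 groups overlapped. The descriptions below that speak of 31 genes leave Prosalpha1 out.

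The 31 genes varied little between libraries. The highest library was between 1.23 times (Prosalpha3) and 1.92 times (Rpn2) the lowest. The median SD of log2 CPM within groups was 0.138 for the 31 genes, against 0.466 for all 11060 genes tested and 0.325 for the 3885 genes of at least 50 CPM, of which 10.4% had a lower SD than the median subunit gene. By group the members' median SD was 0.0828 in cisplatin, 0.141 in TiO2, 0.0989 in combination and 0.149 in control flies, while that of the genes of at least 50 CPM was 0.0796, 0.112, 0.454 and 0.389 in the same groups. The members were thus no steadier than other abundant genes in the cisplatin and TiO2 groups, by these values, and steadier in the combination and control groups. The genes moved together between libraries: 30 of the 31 were below their own median in TiO2 library 2, where 18 had their lowest value, and 26 of the 31 were above it in control library 2, where 12 had their highest. Control library 1 held the lowest value of 9 other genes, among them Rpn1 and Rpn2.

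The proteolytic subunits of the beta ring were compared first. Prosbeta1, which carries the caspase-like site, had 101, 97.7 and 101 CPM in cisplatin libraries, 95.5, 81.1 and 98.0 CPM in TiO2 libraries, 89.4, 110 and 88.9 CPM in combination libraries and 120, 110 and 97.9 CPM in control libraries. Control libraries 1 and 2 lay toward the upper end and control library 3 did not, and the ranges overlapped in every comparison. Prosbeta2, which carries the trypsin-like site, had 188, 174 and 172 CPM in cisplatin libraries, 166, 156 and 183 CPM in TiO2 libraries, 170, 189 and 164 CPM in combination libraries and 172, 210 and 182 CPM in control libraries. Control library 2 was the highest of all, and again the ranges overlapped. Prosbeta5 (2R:10819978-10821178) had 220, 209 and 219 CPM in cisplatin libraries, 225, 170 and 203 CPM in TiO2 libraries, 191, 208 and 202 CPM in combination libraries and 225, 243 and 233 CPM in control libraries. For this gene all cisplatin and all combination libraries were below all control libraries, while TiO2 library 1 reached into the control range.

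The comparison of cisplatin with control asks what the drug alone did to these transcripts. Of the 48 genes, 35 passed the filter on low counts: the 32 ubiquitous genes, Prosalpha1R, Rpt3R and Rpt6R. With edgeR's quasi-likelihood test and Benjamini-Hochberg adjustment over all 11060 genes tested, 0 of the 35 were called at an adjusted p under 0.05, and 0% of all genes were. At an unadjusted p under 0.05, 1 of the 35 passed (Rpt6R, lower), against 18.3% of all genes. DESeq2 called 0 of the 35, against 1.98% of all genes, and limma with sample weights called 10, against 73.6% of all genes. The ranges did not overlap for 4 of the 35 genes on the higher side (Rpn2, Rpn5, Rpn6 and Rpn8), against 15.6% of all genes, and for 2 on the lower side (Prosbeta5 and Rpt6R), against 15%. The median log2 fold change of the 32 ubiquitous genes was -0.0060, with 14 of the 32 above 0, and that of all genes was -0.028.

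Rpn5, a lid scaffold subunit, had 301, 301 and 330 CPM in cisplatin libraries and 202, 268 and 283 CPM in control libraries. Rpn1, the base scaffold that docks ubiquitin carriers, had 295, 306 and 352 CPM in cisplatin libraries and 191, 297 and 279 CPM in control libraries. Rpn5 was higher in every cisplatin library than in any control library, whereas Rpn1 overlapped through 1 library on each side. The log2 fold change was 0.31 ± 0.15 for Rpn5 (SE, adjusted p = 0.275) and 0.31 ± 0.17 for Rpn1 (SE, adjusted p = 0.287). Without control library 1 these were 0.17 for Rpn5 and 0.13 for Rpn1. Prosbeta5 differed by -0.11 ± 0.13 (SE, adjusted p = 0.538), Prosbeta1 by -0.13 ± 0.14 (SE, adjusted p = 0.507) and Prosbeta2 by -0.079 ± 0.13 (SE, adjusted p = 0.672). Prosbeta2 was at -0.15 without control library 1, 0.015 without control library 2 and -0.046 without cisplatin library 3, and Prosbeta1 at -0.067 without control library 1 and -0.20 without control library 3.

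The comparison of TiO2 with control uses the same 3 control libraries. Again 0 of the 35 genes and 0% of all genes were called by edgeR at an adjusted p under 0.05. At an unadjusted p under 0.05, 1 of the 35 passed (Rpn2, higher), against 16.5% of all genes. DESeq2 called 0 of the 35, against 3.45% of all genes, and limma with sample weights called 18, against 71.5% of all genes. The ranges did not overlap for 2 genes on the higher side (Rpn2 and Rpn5), against 11.3% of all genes, and for 3 on the lower side (Prosalpha6, Prosbeta3 and Prosbeta7), against 14.9%. The median log2 fold change of the 32 genes was -0.050, with 10 of the 32 above 0, and that of all genes was -0.083.

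Rpn2 (3R:29153524-29157255), a base scaffold subunit and the longest of the genes, had 410, 355 and 407 CPM in TiO2 libraries and 213, 337 and 334 CPM in control libraries. Rpn5 had 327, 296 and 332 CPM in TiO2 libraries and the control values given above. For both, the groups stood clear of each other, with control library 1 far below the other 2 controls. The log2 fold change was 0.41 ± 0.18 for Rpn2 and 0.34 ± 0.15 for Rpn5 (SE, adjusted p = 0.300 for each). Without control library 1 they were 0.21 for Rpn2 and 0.19 for Rpn5. Prosbeta5 differed by -0.23 ± 0.13 (SE, adjusted p = 0.319), Prosbeta1 by -0.26 ± 0.14 (SE, adjusted p = 0.313) and Prosbeta2 by -0.16 ± 0.13 (SE, adjusted p = 0.409). Without control library 2 Prosbeta2 was at -0.066, and without TiO2 library 2 Prosbeta5 was at -0.14.

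The comparison of the combination with control, which is the exposure named in the title of the study, shares these controls as well. None of the 35 genes (0) and 0% of all genes were called by edgeR at an adjusted p under 0.05. At an unadjusted p under 0.05, 1 of the 35 passed (Rpt3R, higher), against 7.09% of all genes. DESeq2 called 0 of the 35, against 1.01% of all genes, and limma with sample weights called 11, against 58.4% of all genes. The ranges did not overlap for 3 genes on the higher side (Rpn2, Rpn3 and Rpn6), against 1.76% of all genes, and for 5 on the lower side (Prosalpha4, Prosalpha6, Prosbeta4, Prosbeta5 and Rpn12), against 5.06%. The median log2 fold change of the 32 genes was -0.074, with 12 of the 32 above 0, and that of all genes was 0.049.

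Prosbeta4 (2L:16731180-16732133), a beta ring subunit without a proteolytic site, had 86.3, 101 and 93.7 CPM in combination libraries and 125, 121 and 105 CPM in control libraries. Rpn2 had 384, 339 and 357 CPM in combination libraries, and Prosbeta5 had the values given above. All 3 combination libraries were below all 3 controls for Prosbeta4 and Prosbeta5 and above them for Rpn2, the nearest libraries for Rpn2 being at 339 and 337 CPM. The log2 fold change was -0.32 ± 0.15 for Prosbeta4 (SE, adjusted p = 0.703), -0.22 ± 0.13 for Prosbeta5 (SE, adjusted p = 0.901) and 0.29 ± 0.18 for Rpn2 (SE, adjusted p = 0.935). Without combination library 2, which holds the testis transcripts, they were -0.38 for Prosbeta4, -0.25 for Prosbeta5 and 0.33 for Rpn2, and without control library 1 that of Rpn2 was 0.089. Prosbeta1 differed by -0.19 ± 0.14 and Prosbeta2 by -0.11 ± 0.13 (SE, adjusted p = 0.952 for each). Without combination library 2 these were -0.30 for Prosbeta1 and -0.17 for Prosbeta2, and Prosbeta2 was at -0.18 without control library 1 and -0.023 without control library 2.

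Taken by subcomplex, the beta ring genes lay below control in each exposed group, while the base and lid genes lay on both sides. In cisplatin flies the median log2 fold change was -0.13 for the beta ring (7 of 7 genes below 0), 0.0062 for the alpha ring (3 of 7), 0.045 for the base (5 of 10) and 0.059 for the lid (3 of 8). In TiO2 flies it was -0.26 for the beta ring (7 of 7 below 0), -0.052 for the alpha ring (6 of 7), 0.017 for the base (5 of 10) and 0.0025 for the lid (4 of 8). In combination flies it was -0.19 for the beta ring (7 of 7 below 0), -0.098 for the alpha ring (6 of 7), 0.029 for the base (4 of 10) and 0.099 for the lid (3 of 8). Without the uncertain Prosalpha1, 3 of 6 alpha ring genes were below 0 in cisplatin flies (median 0.0021). All 6 were below 0 in TiO2 flies (median -0.067) and in combination flies (median -0.105). Each of these comparisons rests on the same controls, and none of the single genes passed the adjusted threshold. The summed beta ring level was 1000 ± 63.1 CPM in cisplatin flies, 933 ± 88.5 CPM in TiO2 flies, 961 ± 103 CPM in combination flies and 1094 ± 85.7 CPM in control flies (SD, n = 3 each). The summed base level was 2125 ± 135 CPM in cisplatin flies, 2101 ± 190 CPM in TiO2 flies, 2065 ± 48.5 CPM in combination flies and 1958 ± 280 CPM in control flies (SD, n = 3 each). For the beta ring, cisplatin library 1 at 1054 CPM and combination library 2 at 1074 CPM reached into the control range, whose lowest library had 1028 CPM. The TiO2 libraries, at 998, 832 and 969 CPM, were all below the controls. For the base the controls held the lowest library, at 1667 CPM, and each exposed group overlapped with them. Without control library 1 the beta ring genes were below control in 7 of 7 cases in each exposed group, with medians of -0.15 in cisplatin, -0.24 in TiO2 and -0.24 in combination flies. Limma with sample weights called 5 of the 7 for cisplatin, 7 for TiO2 and 7 for the combination, all lower. The shares of all genes it called are given above. It weighted control library 2 at 4.69 and control libraries 1 and 3 at 0.278 and 0.116. Its calls against control therefore rest mainly on control library 2, where 26 of the 31 genes were above their own median. With edgeR and without control library 2, 5 of 7 genes were below control in cisplatin flies, with a median of -0.078. The count was 7 of 7 in TiO2 flies, with a median of -0.19, and 7 of 7 in combination flies, with a median of -0.081. Without cisplatin library 2 it was 6 of 7 in cisplatin flies, with a median of -0.11, and without control library 3 the cisplatin median was -0.20. The median in combination flies was -0.11 without combination library 1 and -0.30 without combination library 2.

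The side on which a gene lay went with its exon length. The 15 genes under 1.3 kb were the 6 measured alpha ring genes, the 7 beta ring genes, Rpn11 (the lid's deubiquitinase) and Rpn12. The 16 longer ones were the other lid genes and the base. Length and membership of the core rings thus differ only for Rpn11 and Rpn12, too few genes to tell them apart. Both lay below control in each exposed group, where the longer lid genes lay on both sides. Within the lid the exon length ran from 995 to 1945 bases, and within the base from 1404 to 3412 bases. The limit of 1.3 kb lies in a gap between Prosbeta7 at 1215 bases and Rpn7 at 1393 bases, and was chosen after the values were seen. Of the 15 shorter genes, 3 were above 0 in cisplatin, 0 in TiO2 and 0 in combination flies against control, with medians of -0.067, -0.16 and -0.15 in those groups. Of the 16 longer genes, 10 were above 0 in cisplatin, 9 in TiO2 and 11 in combination flies, with medians of 0.094, 0.046 and 0.077. Without control library 1 the medians of the longer genes were 0.026, -0.035 and 0.014 in those groups, and without control library 2 the medians of the shorter genes were -0.028, -0.11 and -0.081. Pearson's r between the log2 fold change and log2 exon length over the 31 genes was 0.813 for cisplatin, 0.833 for TiO2 and 0.865 for the combination. The same r over the 3885 genes of at least 50 CPM was 0.277, 0.386 and 0.592 in these comparisons, so longer genes lay higher against control among these abundant genes too. Genes are not independent replicates, since all points of a comparison come from the same libraries, and the comparisons share the controls.

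**Figure D2:**
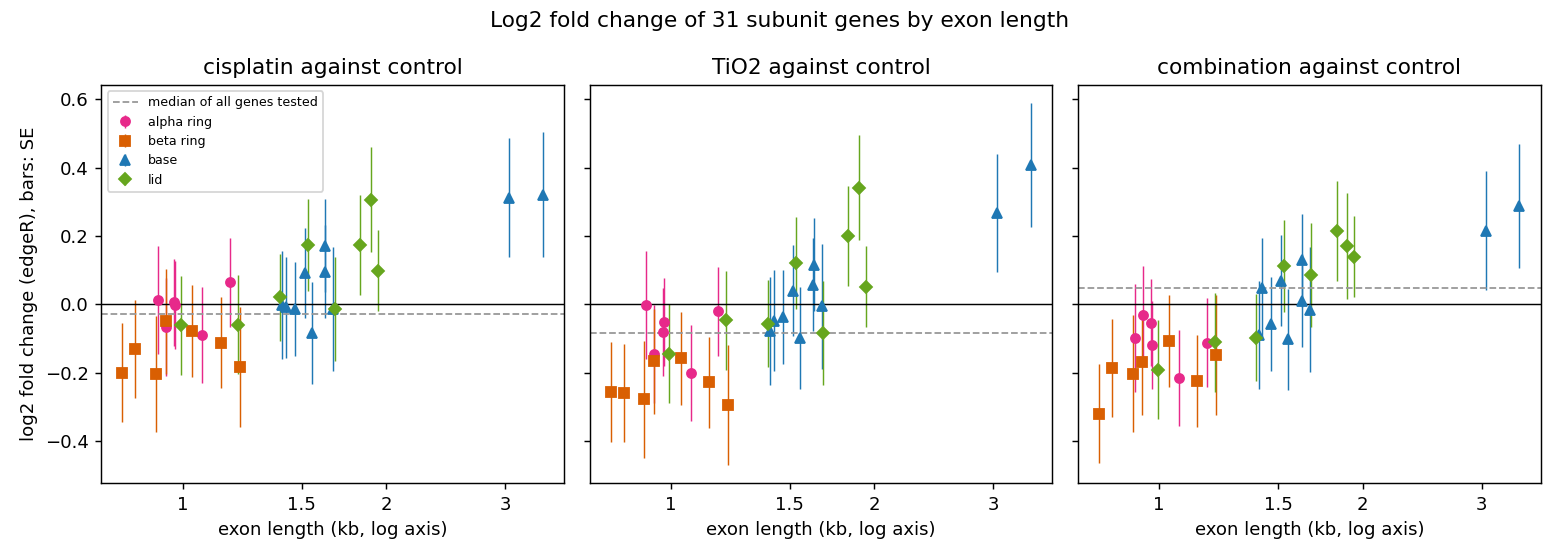
Log2 fold change against control (edgeR, bars are standard errors) of 31 ubiquitous subunit genes by exon length in kb on a log axis, for cisplatin, TiO2 and the combination, with the median of all genes tested as a dashed line. The short beta ring genes lie below 0 in each plot, and Rpn1 and Rpn2, at the right, lie above it.

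Much of this length pattern was visible in single libraries. In control library 1, the deviation of a gene's log2 CPM from its own mean over the 12 libraries correlated with log2 exon length at r = -0.849 over the 31 genes. The longest genes were lowest there: Rpn2 lay 0.712 log2 units below its mean, the lowest deviation of any gene in any library. Control libraries 2 and 3 had r = -0.550 and r = -0.567. Among the exposed libraries, r was -0.477, 0.517 and 0.587 in cisplatin libraries, 0.525, 0.783 and 0.519 in TiO2 libraries, and 0.792, -0.0223 and 0.374 in combination libraries. All 3 controls thus had a negative r, and 7 of the 9 exposed libraries a positive one. These signs are not independent: each deviation is taken from a mean that includes control library 1, whose low values raise the deviations of the others. Over the 3885 genes of at least 50 CPM the same r was -0.254, -0.266 and -0.0556 in the control libraries and between -0.0459 and 0.307 in the exposed ones. Without control library 1, r between the fold change and length over the 31 genes was 0.657 for cisplatin, 0.752 for TiO2 and 0.710 for the combination. Control library 1 also had the largest mitochondrial share, given above, and the highest summed level of cytoplasmic ribosomal protein genes, 102383 CPM against 56075 to 81013 CPM elsewhere. Its levels of ovarian germline markers and of Cp36 were low, as given above. The part of RNA quality, library preparation or ovarian RNA in the pattern was not tested.

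**Figure D3:**
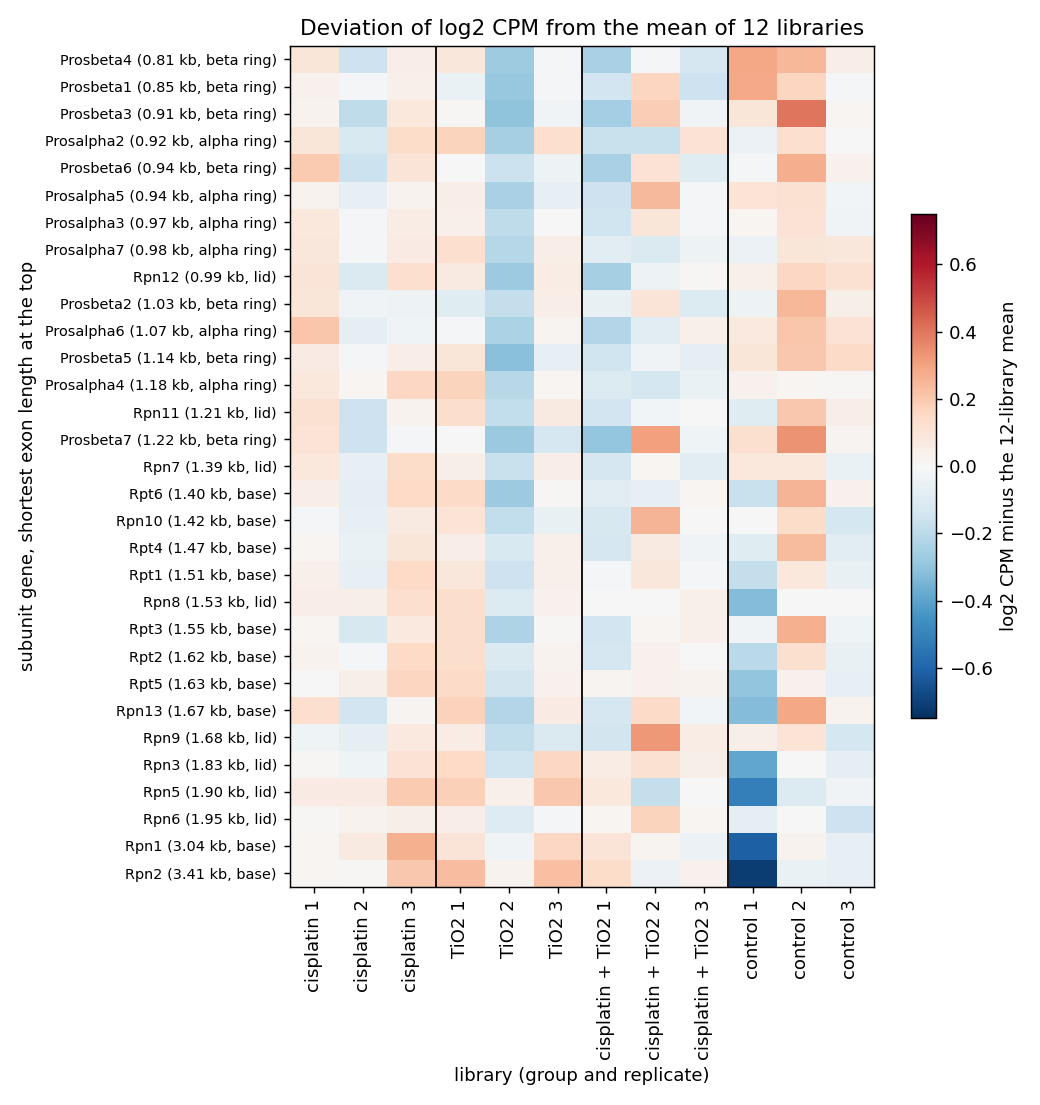
Deviation of log2 CPM from the mean of 12 libraries for 31 subunit genes (rows, shortest exon length at the top) in each library (columns). Control 1 runs from above the mean at the top to 0.712 below it for Rpn2 at the bottom, TiO2 2 is below the mean for nearly all genes and control 2 is above it for most.

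The remaining ubiquitous genes that have a paralog showed the same narrow ranges. Prosalpha3 had 163, 153 and 161 CPM in cisplatin libraries, 159, 136 and 155 CPM in TiO2 libraries, 140, 165 and 154 CPM in combination libraries and 157, 167 and 152 CPM in control libraries. Prosalpha6 had 226, 187 and 191 CPM in cisplatin libraries, 194, 166 and 198 CPM in TiO2 libraries, 167, 184 and 201 CPM in combination libraries and 205, 226 and 210 CPM in control libraries. Prosalpha3 overlapped in all comparisons with control, and Prosalpha6 was below control in all TiO2 and all combination libraries. Rpn12, a lid subunit, had 134, 116 and 137 CPM in cisplatin libraries, 131, 104 and 130 CPM in TiO2 libraries, 106, 122 and 126 CPM in combination libraries and 129, 140 and 136 CPM in control libraries. Rpn13, a ubiquitin receptor of the base, had 182, 151 and 169 CPM in cisplatin libraries, 188, 143 and 174 CPM in TiO2 libraries, 153, 184 and 164 CPM in combination libraries and 133, 203 and 170 CPM in control libraries. Rpn12 was below all controls in all combination libraries, though TiO2 library 2 was its lowest library. Rpn13 took both its lowest and its highest value among the controls. Among the ATPases, Rpt3 had 161, 146 and 168 CPM in cisplatin libraries, 175, 136 and 160 CPM in TiO2 libraries, 144, 161 and 164 CPM in combination libraries and 157, 192 and 156 CPM in control libraries. Rpt4 had 164, 156 and 172 CPM in cisplatin libraries, 168, 150 and 167 CPM in TiO2 libraries, 148, 170 and 159 CPM in combination libraries and 153, 191 and 153 CPM in control libraries. Rpt6 had 180, 166 and 194 CPM in cisplatin libraries, 193, 144 and 176 CPM in TiO2 libraries, 165, 167 and 177 CPM in combination libraries and 155, 208 and 178 CPM in control libraries. For these 3 ATPases control library 2 was the highest library and the groups overlapped.

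Adding TiO2 to cisplatin was addressed by setting the combination against cisplatin alone. EdgeR called 0 of the 35 genes and 0% of all genes at an adjusted p under 0.05, and 2 of the 35 passed an unadjusted p under 0.05 (Rpt3R and Rpt6R, higher), against 14.4% of all genes. DESeq2 called 0, against 0.37% of all genes, and limma with sample weights 3, against 23.7% of all genes. The ranges did not overlap for 4 of the 35 genes, all lower in the combination (Prosalpha4, Prosalpha7, Prosbeta5 and Rpn8), against 7.82% of all genes on that side and 7.57% on the other. The median log2 fold change of the 32 ubiquitous genes was -0.058, with 7 of the 32 above 0, and that of all genes was -0.042. Prosalpha4 had 164, 161 and 170 CPM in combination libraries and 186, 178 and 196 CPM in cisplatin libraries, a log2 fold change of -0.18 ± 0.13 (SE, adjusted p = 0.536). Rpn7, a lid subunit, had 137, 152 and 142 CPM in combination libraries and 159, 144 and 165 CPM in cisplatin libraries, a log2 fold change of -0.12 ± 0.13 (SE, adjusted p = 0.640). Prosalpha4 was lower in each combination library, and Rpn7 overlapped and was at -0.18 without cisplatin library 2.

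Adding cisplatin to TiO2 was addressed by setting the combination against TiO2 alone. EdgeR called 0 of the 35 genes and 0% of all genes, and 1 of the 35 passed an unadjusted p under 0.05 (Rpt6R, higher), against 6.78% of all genes. DESeq2 called 0, against 0.0207% of all genes, and limma with sample weights 1, against 3.15% of all genes. The ranges overlapped for all 35 genes, where 4.23% of all genes were separate on the higher and 2.33% on the lower side. The median log2 fold change of the 32 genes was -0.0065, with 14 of the 32 above 0, and that of all genes was 0.016. Rpn9, a lid subunit, had 156, 215 and 178 CPM in combination libraries and 178, 151 and 159 CPM in TiO2 libraries, a log2 fold change of 0.17 ± 0.15 (SE, adjusted p = 0.680). Its high value came from combination library 2, and without that library the log2 fold change was 0.035, while without combination library 1 it was 0.26. Rpn5 had 305, 255 and 289 CPM in combination libraries, a log2 fold change of -0.17 ± 0.15 against TiO2 (SE, adjusted p = 0.680), and combination library 2 was here the lowest of the 6 libraries; without it the value was -0.10.

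Cisplatin was also set against TiO2 directly. EdgeR, DESeq2 and limma with sample weights each called 0 of the 35 genes and 0% of all genes, and 0 passed an unadjusted p under 0.05, against 0.497% of all genes. The ranges were separate for 1 gene, Rpt3R, lower in cisplatin flies, against 5.24% of all genes on that side and 4.86% on the other. Of the 32 ubiquitous genes 27 were higher in cisplatin flies, with a median log2 fold change of 0.056, while the median of all genes was 0.0012. TiO2 library 2, in which 30 of 31 genes were below their median, is in this comparison, and without it the median was -0.0071. The leading ubiquitous genes were Prosbeta1, at 0.13 ± 0.14, and Prosbeta5, at 0.12 ± 0.13 (SE, adjusted p = 1.00 for each). Without TiO2 library 2 they were at 0.057 for Prosbeta1 and 0.023 for Prosbeta5, and without TiO2 library 1 Prosbeta5 was at 0.21.

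The interaction asks whether the log2 fold change of the combination differs from those of cisplatin and TiO2 added up, and uses all 12 libraries. EdgeR called 0 of the 35 genes and 0% of all genes, and 1 of the 35 passed an unadjusted p under 0.05 (Rpt6R), against 31.7% of all genes. DESeq2 called 1 (Rpt6R), against 11.7% of all genes, and limma with sample weights called 7, against 72% of all genes. The median interaction of the 32 ubiquitous genes was -0.0058, with 15 of the 32 above 0, and that of all genes was 0.072. The interaction was -0.48 ± 0.22 for Rpn5 (SE, adjusted p = 0.161) and -0.44 ± 0.26 for Rpn2 (SE, adjusted p = 0.223). Both genes lay above control in each single exposure, and their log2 fold change in the combination was 0.17 for Rpn5 and 0.29 for Rpn2. Without control library 1 the interaction was -0.33 for Rpn5 and -0.24 for Rpn2, and without combination library 2 as well it was -0.22 for Rpn5 and -0.16 for Rpn2. The 7 beta ring genes all had an interaction above 0, with a median of 0.14, from 0.047 to 0.33 (Prosbeta7). The control mean enters the interaction with a plus sign, so this is not independent of the beta ring lying below control in each exposed group. Prosbeta7 was highest in control library 2, at 194 CPM, and next in combination library 2, at 190 CPM. That of Prosbeta4 was 0.14, and 0.077 without combination library 2 or 0.10 without control library 1. That of Prosbeta5 was 0.12, and 0.088 or 0.16 without the same libraries. Pearson's r between the interaction and log2 exon length was -0.684 over the 31 genes and -0.209 over the 3885 genes of at least 50 CPM.

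In the authors' deposited table of cisplatin against control, 0 of the 32 ubiquitous genes were called, with a smallest adjusted p of 0.247, where 0.878% of its genes were called. In the authors' deposited table of TiO2 against control, 0 of the 32 were called, with a smallest adjusted p of 0.239, against 4.03% of its genes. In the authors' deposited table of the combination against control, 0 of the 32 were called, with a smallest adjusted p of 0.441, against 0.484% of its genes. The 3 paralogs with an adjusted p in these tables were not called in any of them.

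The paralogs gave a different picture. The 13 that did not pass the filter on low counts held 3585 counts in combination library 2 and 111 counts in the other 11 libraries together. These belong to subunits of the alpha ring (Prosalpha3T, Prosalpha4T1, Prosalpha4T2, Prosalpha6T), the beta ring (Prosbeta2R1, Prosbeta2R2, Prosbeta4R1, Prosbeta4R2, Prosbeta5R1, Prosbeta5R2) and the cap (Rpn12R, Rpn13R, Rpt4R). In combination library 2 each had between 74 and 648 counts, and in no other library did any exceed 14. The share of counts found in that library was 100% for Rpn13R, Prosbeta4R1 and Prosbeta4R2, which were at 0 in each of the other 11 libraries. A count of 0 allows up to 0.0649 to 0.112 CPM in those libraries (3 counts, counting error only). With no filter on low counts, edgeR called 0 of the 48 genes in any of the 7 comparisons, where 16141 genes were tested. At an unadjusted p under 0.05 in that fit, 1 of the 48 passed for cisplatin against control (11.5% of all genes), 0 for TiO2 (10.4%) and 8 for the combination (10.5%). For the combination 7 passed against cisplatin (15% of all genes) and 9 against TiO2 (9.97%), while 0 passed for cisplatin against TiO2 (0.434%) and 4 for the interaction (22.3%).

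The values of the leading paralog of each subunit were as follows. Prosbeta5R1 had 19.7 CPM in combination library 2, 1 count in combination library 3 and 0 elsewhere. Prosbeta4R2 had 18.4 CPM in combination library 2, and its gene span overlaps that of Or23a on the same strand. Prosalpha6T had 12.2 CPM there and at most 0.0714 CPM in any other library. All 3 were thus high in a single library of the 12. Prosalpha4T2 had 9.80 CPM in combination library 2 and at most 0.0540 CPM elsewhere. Rpn12R had 8.92 CPM there and 1 count in combination library 3, and overlaps Sytbeta on the same strand. Rpn13R had 5.70 CPM there and overlaps CG15465 and rg on the same strand. Only gene spans were compared, so whether the overlapping genes share counts with these paralogs was not tested. Prosbeta4R2, Rpn12R and Rpn13R gave 0 or 1 counts in the other libraries. Prosbeta2R1 had 5.58 CPM there, and its highest other value was 0.0607 CPM in cisplatin library 3. Prosalpha3T had 2.25 CPM there and at most 0.0732 CPM elsewhere. These levels were low next to the ubiquitous genes: per length, the 13 paralogs stood at 1.49% (Prosalpha3T) to 9.74% (Prosbeta5R1) of their ubiquitous counterparts in combination library 2, and at no more than 0.205% elsewhere. The summed testis markers, given above, moved with them, and the part of testis RNA was not tested. Combination libraries 1 and 3 had 0.189 and 0.575 CPM for the 13 paralogs in sum, against 0.272 to 0.321 CPM in the controls. Library 1 thus lay below the controls and library 3 above them, with 0.335 CPM of the sum in library 3 coming from Rpt4R.

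**Figure D4:**
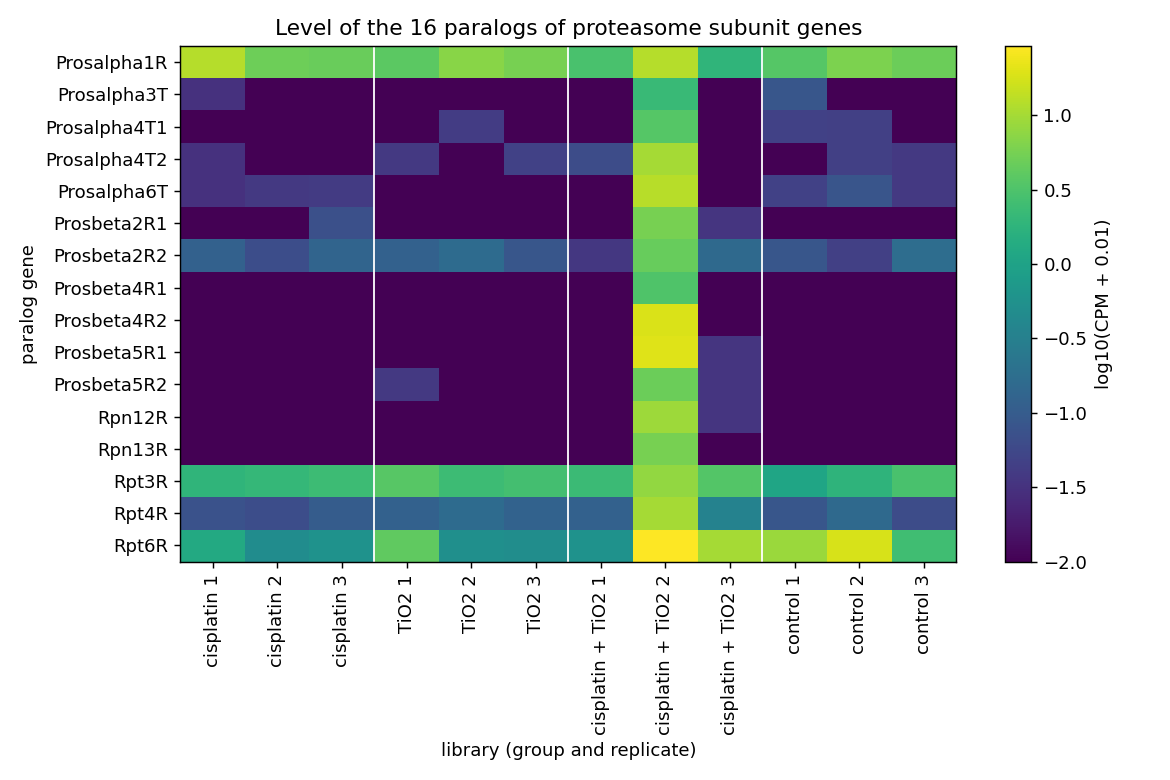
Level of the 16 paralogs as log10(CPM + 0.01) in each library. Combination library 2 is bright for all 16, while Prosalpha1R, Rpt3R and Rpt6R have counts in every library and the other 13 are at or near 0 outside that library.

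Rpt4R and Prosbeta2R2 had counts in every library, though few. Rpt4R had 0.0649, 0.0554 and 0.0911 CPM in cisplatin libraries, 0.109, 0.154 and 0.112 CPM in TiO2 libraries, 0.108, 9.98 and 0.335 CPM in combination libraries and 0.0732, 0.143 and 0.0545 CPM in control libraries. Prosbeta2R2 had 4.55 CPM in combination library 2 and 0.0270 to 0.163 CPM elsewhere. Rpt3R, a paralog of the ATPase gene Rpt3, was more abundant, with 1.82, 2.05 and 2.34 CPM in cisplatin libraries, 3.67, 2.37 and 2.72 CPM in TiO2 libraries, 2.32, 8.07 and 3.40 CPM in combination libraries and 1.06, 1.79 and 2.91 CPM in control libraries. Its log2 fold change was 1.25 ± 0.51 for the combination against control (SE, adjusted p = 0.640), and without combination library 2 it was 0.57.

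Rpt6R (3R:30582198-30583697), a paralog of the ATPase gene Rpt6, varied more than any other of the 35 genes tested, its highest library being 62.0 times its lowest. It had 1.28, 0.471 and 0.577 CPM in cisplatin libraries, 4.19, 0.523 and 0.484 CPM in TiO2 libraries, 0.567, 29.2 and 9.91 CPM in combination libraries and 8.90, 17.9 and 2.53 CPM in control libraries. All 3 cisplatin libraries were below all 3 controls, while the TiO2 and combination groups each spanned a wide range and overlapped with the controls. The log2 fold change was -3.64 ± 1.33 for cisplatin against control (SE, adjusted p = 0.270) and -2.49 ± 1.26 for TiO2 against control (SE, adjusted p = 0.305). The combination against cisplatin gave 4.08 ± 1.36 (SE, adjusted p = 0.334), the combination against TiO2 gave 2.92 ± 1.28 (SE, adjusted p = 0.617) and cisplatin against TiO2 gave -1.16 ± 1.24 (SE, adjusted p = 1.00). Without combination library 2 these were 2.74 for the combination against cisplatin and 1.58 against TiO2. Without TiO2 library 1, which had the highest level in its group, the value was -4.26 for TiO2 against control, 4.68 for the combination against TiO2 and 0.63 for cisplatin against TiO2. With 1 library left out at a time, the value for TiO2 against control ran from -4.26 to -1.70. Its interaction of 6.56 ± 1.85 (SE, adjusted p = 0.129) was the strongest of the 35 genes, and was called by DESeq2.

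The level of Rpt6R can be set beside that of flight muscle. The summed flight muscle markers were 1950, 4511 and 5282 CPM in cisplatin libraries, 8136, 7305 and 4076 CPM in TiO2 libraries, 2459, 36418 and 11399 CPM in combination libraries and 29746, 19686 and 3332 CPM in control libraries. The 4 libraries highest in Rpt6R, combination 2, control 2, combination 3 and control 1, were also the 4 highest in these markers. TiO2 library 1 was next in both. From there on the order was not shared: TiO2 library 2 had 7305 CPM of the markers and 0.523 CPM of Rpt6R, and control library 3 had 3332 CPM and 2.53 CPM. Leaving aside the library that holds testis transcripts, control library 2, combination library 3 and control library 1 had the highest levels of Rpt6R. The part of muscle or testis RNA in the level of Rpt6R was not tested.

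**Figure D5:**
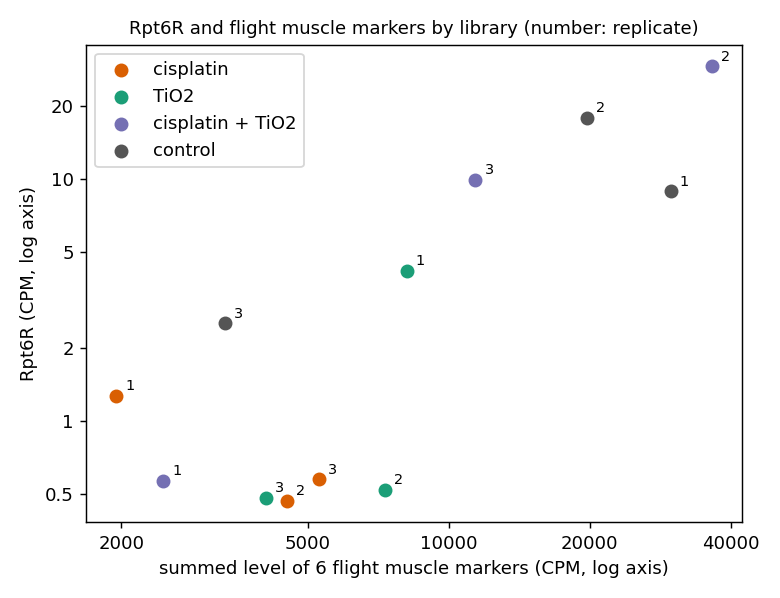
Level of Rpt6R in CPM against the summed level of 6 flight muscle markers in CPM, both on log axes, for the 12 libraries, numbered by replicate. The 4 libraries at the upper right, between 8.90 and 29.2 CPM of Rpt6R, belong to the combination and control groups.

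Other genes of the ubiquitin and proteasome system were taken from 4 lists with 30 genes in all, all of which passed the filter. EdgeR called 0 of the 30 in any comparison with control. At an unadjusted p under 0.05, 5 of the 30 passed for cisplatin, 8 for TiO2 and 0 for the combination, against the 18.3%, 16.5% and 7.09% of all genes given above. DESeq2 also called 0 of the 30 in these 3 comparisons, and limma with sample weights called 20 for cisplatin (11 higher), 22 for TiO2 (11 higher) and 19 for the combination (9 higher), beside its shares of all genes given above. In the list of assembly factors, activators and associated proteins (8 genes), the median log2 fold change was 0.18 in cisplatin, 0.11 in TiO2 and 0.0079 in combination flies. In the list of ubiquitin and delivery genes (11 genes) it was 0.12 in cisplatin, 0.058 in TiO2 and -0.058 in combination flies. In the list of aggregate and autophagy genes (7 genes) it was -0.34 in cisplatin, -0.45 in TiO2 and -0.11 in combination flies, and in the 4 regulators it was 0.010, -0.016 and -0.051 in the same groups. The largest departure from the medians of all genes was thus in the aggregate and autophagy list, which holds the heat shock genes.

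Hsp68, an inducible chaperone, had 61.6, 59.5 and 67.2 CPM in cisplatin libraries, 126, 58.6 and 87.1 CPM in TiO2 libraries, 159, 289 and 94.7 CPM in combination libraries and 175, 312 and 96.7 CPM in control libraries. All cisplatin libraries were below all controls, by -1.63 ± 0.48 on the log2 scale (SE, adjusted p = 0.270). The regulator cnc had 376, 403 and 381 CPM in cisplatin libraries, 367, 386 and 391 CPM in TiO2 libraries, 397, 237 and 329 CPM in combination libraries and 213, 236 and 316 CPM in control libraries. All cisplatin and all TiO2 libraries were above all controls for cnc. The difference was 0.60 ± 0.20 for cisplatin (SE, adjusted p = 0.270) and 0.58 ± 0.20 for TiO2 (SE, adjusted p = 0.300). The libraries lowest in cnc, control 1, control 2 and combination 2, were also the lowest in ovarian germline markers. Those markers summed to 1409, 1437 and 1257 CPM there, and to 2307 CPM in control library 3. The part of ovarian RNA in the level of cnc was not tested. The gene span of cnc overlaps that of the testis gene fzo on the same strand, and overlap of exons was not examined. TER94, the ATPase that extracts ubiquitinated proteins, had 757, 724 and 749 CPM in TiO2 libraries and 453, 622 and 636 CPM in control libraries. All TiO2 libraries were higher than the controls, by 0.38 ± 0.16 (SE, adjusted p = 0.300), with control library 1 the lowest. In the combination, p47, an adaptor of that ATPase, had 91.0, 89.5 and 97.7 CPM, against 102, 129 and 118 CPM in control libraries. Its log2 fold change was -0.32 ± 0.15 (SE, adjusted p = 0.729), and the ranges did not overlap. The gene ntc, an F-box protein that acts on proteasomes in developing sperm, had 16.3, 35.6 and 13.9 CPM in combination libraries and 9.05, 14.8 and 15.5 CPM in control libraries, so the high value was again that of combination library 2. Its log2 fold change was 0.74 ± 0.35 (SE, adjusted p = 0.734), and it overlaps CG32264 on the same strand.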

How the data were processed

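Raw counts per gene in whole bodies of female flies were used as the authors deposited them, from a stranded mRNA kit per the labels' protocols. The submitters' processing notes name FastQC, Trimmomatic, BWA, SAMtools and HTSeq. Which program counted, its strand setting and the genome build are not given in the sources used here. The authors' deposited tables of log2 fold changes and adjusted p-values were read as values of their own. Library totals were 26763042 to 46694769 counts, and replicates differed beyond sampling noise. Counts were scaled by TMM and tested with edgeR 4.0.16 (filterByExpr, quasi-likelihood test, 4 group means, all 12 libraries, two-sided, Benjamini-Hochberg at 0.05) in R 4.3.3. CPM use TMM-scaled library sizes, and log2 CPM a prior count of 2. The test was checked on simulated data. Recovery of changed genes was required there only at a set spread between libraries, not at the spread fitted to these data. That check thus does not give the power of the test here. DESeq2 1.42.0 and limma 3.58.1 (voom with sample weights), other scaling, no filter, only the groups compared, a replicate block and leaving out each library were alternatives, and leaving out control library 1 together with combination library 2 was added after seeing the data. The members and lists were chosen with earlier results of these data known. Named genes are, in each comparison, the 3 members with the smallest p among those of at least 5 CPM on average, the proteolytic subunits, the leading genes of each subunit with paralogs, and the 2 leading pathway genes. Other named genes were chosen after their values were seen. No sequences were used here.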

Additional observations from a re-analysis of the deposited data

Results flagged for a closer look

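Transcripts of the 13 paralogs that were too rare to be tested summed to 109 CPM in combination library 2 and to 0.575 CPM in combination library 3, both above the 0.272 to 0.321 CPM of the 3 control libraries. Library 3 held 24 counts of these genes, of which 14 (0.335 CPM) came from Rpt4R. Its excess over the controls thus rested largely on that gene. The testis markers of library 3 summed to 2.68 CPM, against 0.926 to 1.71 CPM in the controls.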

How the results depend on the processing

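The count of proteasome genes called was 0 in each of the 7 comparisons under another scaling, no filter and the 2 libraries left out together, and in the 6 between groups with only the groups compared. With a replicate block it was 0 in each of the 7. The numbers did not pair the libraries: 7 of 18 same-numbered pairs correlated over 0.1, and r ran from -0.745 to 0.452. Limma with sample weights called 10 genes for cisplatin, 18 for TiO2 and 11 for the combination against control, 3 for the combination against cisplatin, 1 against TiO2 and 7 for the interaction. Its weights ran from 0.0623 (combination library 2) to 6.48 (combination library 3). Among the controls library 2 weighed 4.69, against 0.278 and 0.116 for libraries 1 and 3. This method moved the ubiquitous median to -0.17 for TiO2 against control and to 0.14 for the interaction. DESeq2 called 1 gene for the interaction, and leaving out single libraries gave 0 to 2 there: Rpt4R and Rpt6R without combination library 1, where 25% of all genes were called, and Rpt6R without control library 3, where 15.5% were. With 1 library left out, Prosbeta2 in cisplatin against control ranged from -0.15 to 0.015 (without control library 2), and Rpt6R in cisplatin against TiO2 from -1.73 to 0.63 (without TiO2 library 1). The cause was not tested. Leaving out combination library 2 shifted the median of all genes by -0.14 in the combination against control. The other counts (87) stayed at 0, and the other medians (94) moved by less than the SD between libraries. The sign of the ubiquitous median turned in 18 of 96 alternatives: in 8 of 18 for the interaction (range -0.098 to 0.14), 4 of 13 for the combination against TiO2 (-0.081 to 0.035), 3 for cisplatin against control (-0.11 to 0.060), 2 for TiO2 against control (-0.17 to 0.020), 1 for cisplatin against TiO2 (-0.0071 to 0.12) and 0 for the combination against control or cisplatin. With a median standard error of 0.14 (log2), small changes of single subunits were not detectable. EdgeR also left Rpt6R, which varied more, uncalled at -3.64 for cisplatin against control (adjusted p = 0.270). A count of 0 genes called therefore does not limit the changes to small ones.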
